A study of Mus musculus with 48 samples.

Results

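Secreted signals of injured sensory neurons are described here through 10 genes, chosen by name because their proteins act on glia, microglia or immune cells. The choice was made with earlier results of these data known. They are 10 of 47643 gene identifiers counted, namely Csf1, Il34, Ccl2, Cx3cl1, Inhba, Inhbb, Tgfb1, Lif, Timp1 and Reg3b. Of these, 9 passed the filter on low counts and were among the 19048 genes tested, and Cx3cl1 did not pass.

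The study measured RNA of nociceptors, sensory neurons that detect damaging stimuli, 3 days after the sciatic nerve had been crushed, in mice with or without Tsc2 in those neurons. All mice carried Nav1.8-Cre and the Rosa26-ZsGreen reporter on a mixed C57BL/6 and AJ background and were 8 to 9 weeks old. Control mice were Tsc2 flox/+, so that Cre left them 1 intact copy of Tsc2 in these neurons, and conditional knockout (cKO) mice were Tsc2 flox/null, so that the rest of their cells carried 1 copy and the neurons none. Green cells were sorted from the L4 dorsal root ganglia 3 days after the crush, from the injured side (crushed) or from the other side of crushed mice (called uninjured here). The 4 groups, uninjured control, uninjured cKO, crushed control and crushed cKO, each held 4 biological replicates, 2 of each sex, and each replicate was sequenced as 3 aliquots of about 100 cells, whose counts were summed.

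A neuron whose axon has been cut or crushed sends signals out of its own cell body. Csf1 and Il34 encode the ligands of the receptor CSF1R, on which microglia and macrophages depend, and Csf1 made by injured sensory neurons is known for driving microglial division in the spinal cord. Ccl2 and Cx3cl1 encode chemokines for monocytes and microglia. Inhba and Inhbb encode the subunits that pair into activins, which belong with TGF-beta to one superfamily, and Lif encodes a cytokine that signals through the shared receptor chain gp130. Timp1 encodes a secreted inhibitor of matrix metalloproteinases and Reg3b a secreted C-type lectin. Tuberin, the product of Tsc2, restrains the growth-promoting kinase complex mTORC1.

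The 48 libraries held 5159353 to 34228180 counts (median 16885996) and the 16 summed samples 36773198 to 63365268. Levels are given as CPM, counts scaled to library size (counts per 1e6), and the verbs rose and fell are kept for genes where edgeR's quasi-likelihood test gave a Benjamini-Hochberg adjusted p under 0.05 over all genes tested. Tsc2 counts were 21 ± 5.14 CPM (SD, n = 4) in uninjured control and 8.86 ± 1.51 in uninjured cKO samples, and 23.2 ± 3.76 and 8.30 ± 2.42 after crush. The 10 nociceptor markers were detected in all groups, with a median summed level of 14100 CPM in uninjured control, 6780 in uninjured cKO, 8330 in crushed control and 5330 in crushed cKO samples. With crush in control 5 of the 10 fell and 1 rose, beside 8.68% and 11.0% of all genes. The 6 large-fibre markers summed to 19.7 to 72.8 CPM per sample. Satellite glia markers summed to 791 to 1980 CPM and Schwann cell markers to 1330 to 1900 CPM. Of the latter, Mag was under 1 CPM on average in all groups, Prx in all but crushed cKO, and Ncmap in crushed cKO only. Whether this RNA came from surrounding glia or from the neurons was not tested. In the same order of groups the medians were 933, 1110, 1090 and 1510 CPM for satellite glia and 1600, 1610, 1820 and 1710 CPM for Schwann cells. Satellite glia sums were 791 to 1280 CPM in uninjured control and 1380 to 1980 CPM in crushed cKO samples, without overlap. Of the 10 satellite glia markers 1 rose with crush, Glul in both genotypes, and 1 with deletion, Sparcl1 on either side. Their median log2 change was 0.045 with crush in control and 0.523 in cKO. With deletion it was 0.052 without injury and 0.591 after crush. Of the 7 Schwann cell markers 1 rose, Mag with deletion after crush, from 0 in crushed control. Over all genes tested, 11.0% rose with crush in control and 2.57% in cKO, and 11.7% with deletion without injury and 3.38% after crush. The 13 markers of vascular cells and fibroblasts had median sums of 216, 233, 100 and 270 CPM in the same order of groups. Of 12 tested, 1 rose with crush in control, 2 with deletion without injury and 1 after crush, and 0 fell. These counts of markers were not tested against the shares of all genes. Acta2, of smooth muscle, had means of 0.132, 7.25, 0.602 and 8.70 CPM, and rose with crush in control (2.15 ± 0.60 log2, edgeR adjusted p = 0.0192), with deletion without injury (5.74 ± 0.65, 1.54e-05) and with deletion after crush (3.86 ± 0.58, 0.000896). Pdgfrb, of pericytes, rose with deletion without injury (1.10 ± 0.36, edgeR adjusted p = 0.041). The part of these shifts in the changes of the 10 genes was not tested. In such bulk samples fewer cells of a type and less RNA per cell cannot be told apart. One library stood apart, aliquot C of crushed cKO replicate 3. Its median correlation with its group was 0.888, against 0.917 to 0.976 for the others, and it had the fewest genes detected (15493, against 15925 or more). For Csf1, Il34, Inhbb, Timp1 and Reg3b values are also given without it.

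**Figure D1:**
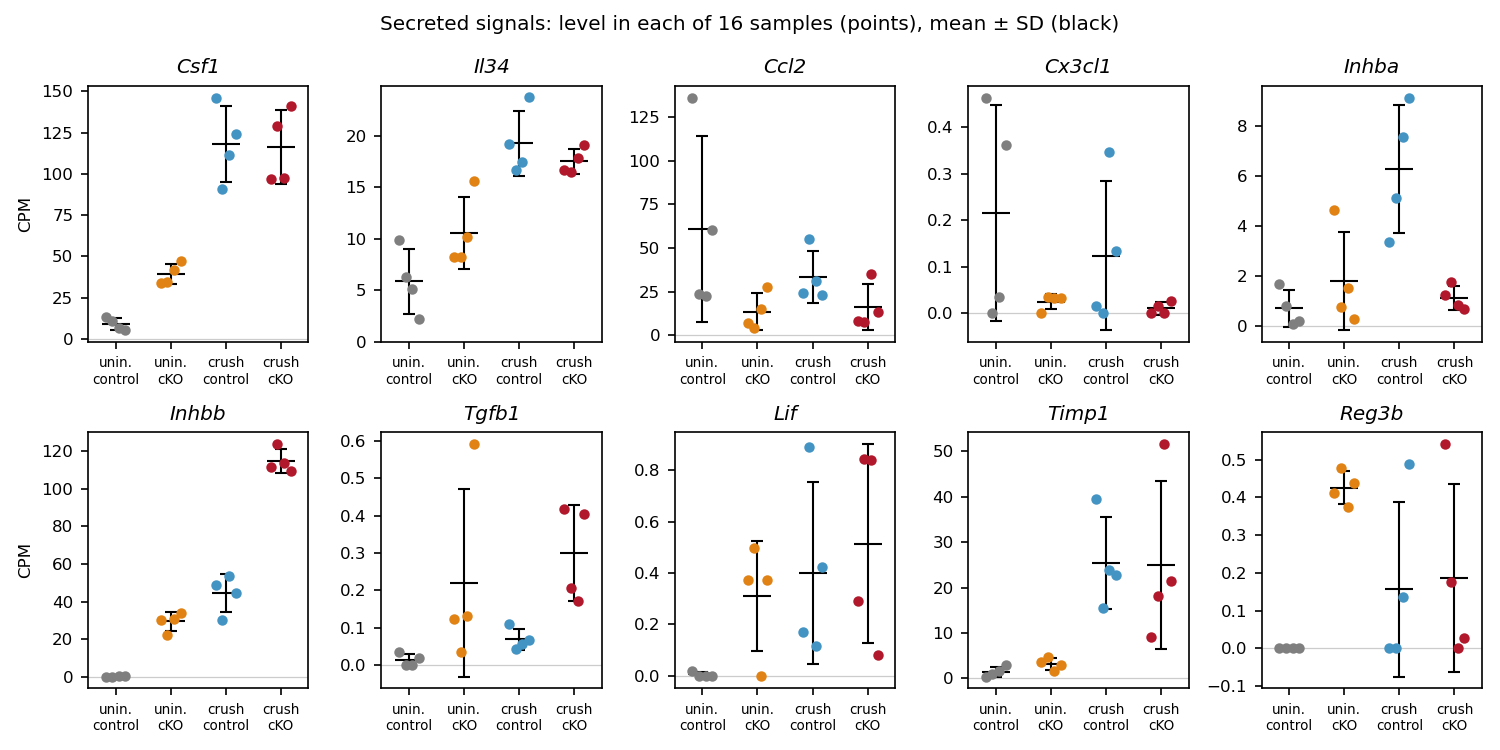
Level of each of the 10 genes in CPM (vertical axis, from 0) in the 4 samples of each group, with the group mean and SD in black. For Csf1 the 4 uninjured cKO samples lie above all uninjured control and below all crushed samples, for Inhbb the 4 crushed cKO samples lie above all others, and all 4 uninjured control samples of Reg3b are at 0.

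Crush in control neurons raised 6 of the 10 genes and lowered 0 of them. They were Csf1, Il34, Inhba, Inhbb, Lif and Timp1; over all genes tested, 11.0% rose and 8.68% fell. In cKO neurons crush raised 3 of the 10, Csf1, Inhbb and Timp1, and lowered 0, beside 2.57% of all genes up and 2.86% down. Loss of the second Tsc2 copy without injury raised 5 of the 10, Csf1, Inhbb, Tgfb1, Lif and Reg3b, beside 11.7% of all genes. It lowered 1, Ccl2, beside 9.02%. After crush the deletion raised 1 gene, Inhbb, beside 3.38% of all genes, and lowered 0 beside 3.21%. On the log2 scale the effect of crush was smaller in cKO than in control neurons for 2 genes, Csf1 and Inhbb, a direction called for 1.54% of all genes, and larger for 0, beside 0.220%. Crush in control and deletion without injury share the uninjured control samples, and each crush comparison shares 1 group with each deletion comparison, so those counts are not independent of each other. Because the 10 genes were chosen with earlier results of these data known, the shares of all genes describe the background only. They do not test the 10 genes as a set.

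**Figure D2:**
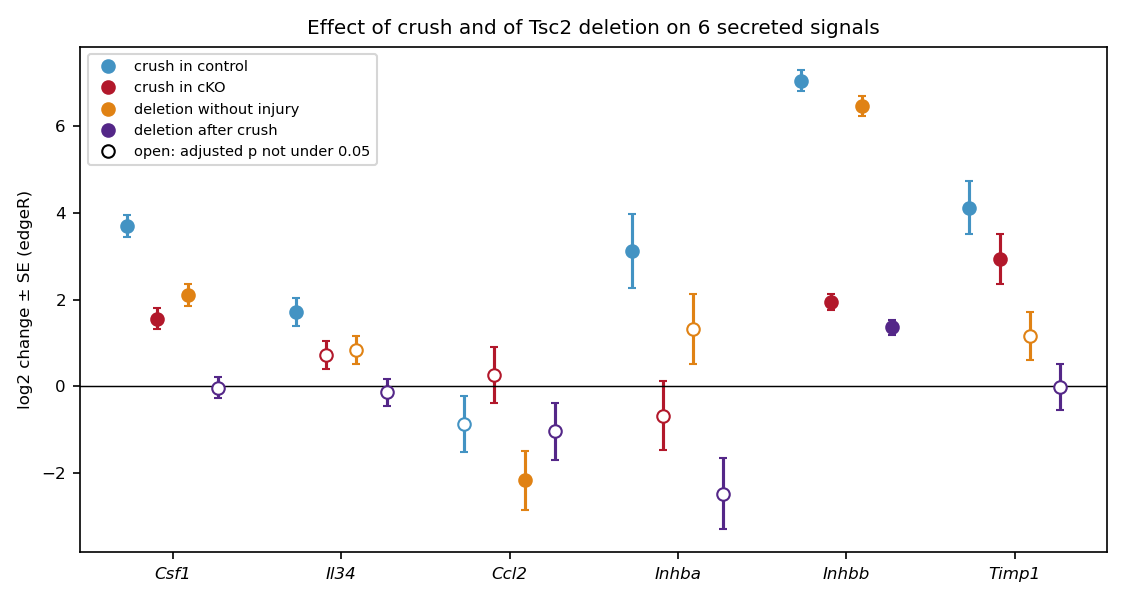
Log2 change (vertical axis) ± SE for the 6 genes with more than 3 counts in every group, in 4 comparisons marked by colour, with filled points where the edgeR adjusted p was under 0.05. Inhbb has the highest points, 7.06 for crush in control and 6.47 for deletion without injury, and Ccl2 has its single filled point at -2.17.

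The colony-stimulating ligands came first. Csf1 (ENSMUSG00000014599, chromosome 3, 107741048 to 107760469, minus strand, GRCm38, GENCODE M21) had 13.0, 11.1, 6.87 and 5.28 CPM in the uninjured control samples. Its uninjured cKO samples had 33.8, 34.7, 41.8 and 47.1 CPM. All 4 of these lay above every uninjured control sample and below every crushed sample. The crushed control samples had 146, 90.7, 112 and 124 CPM and the crushed cKO samples 96.7, 129, 97.5 and 141 CPM, and these groups overlapped. Crush raised Csf1 by 3.70 ± 0.26 on the log2 scale in control neurons (edgeR adjusted p = 8.47e-08), a 13.0-fold difference of means. In cKO neurons the rise was 1.56 ± 0.24 (edgeR adjusted p = 0.00119). Deletion alone raised it by 2.11 ± 0.25 (edgeR adjusted p = 2.04e-05). The crush effect was thus 2.14 ± 0.34 log2 units smaller in cKO than in control neurons, an interaction of -2.14 (edgeR adjusted p = 0.00233). After crush the genotypes differed by -0.02 ± 0.23 (edgeR adjusted p = 0.975), with a 95% interval of -0.49 to 0.44. The library that stood apart had 42.1 CPM of Csf1, against 73.7 to 205 in the other 11 of its group; without it the crush effect in cKO was 1.61 and the interaction -2.09, both still called. In order, uninjured control was lowest, then uninjured cKO, then the crushed groups, between which no difference beyond their spread was seen.

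Il34 (ENSMUSG00000031750, chromosome 8, 110741829 to 110805924, minus strand) encodes the second CSF1R ligand, which in mice is made by neurons and keratinocytes. Its levels were 9.85, 6.28, 5.10 and 2.23 CPM in uninjured control and 8.23, 8.24, 10.2 and 15.6 CPM in uninjured cKO samples, which overlapped. Crushed control samples had 19.2, 16.6, 17.4 and 23.7 CPM and crushed cKO samples 16.7, 16.5, 17.8 and 19.1 CPM. Every crushed sample was above every uninjured sample of either genotype. The rise with crush in control neurons was 1.71 ± 0.33 log2 (edgeR adjusted p = 0.0016). In cKO neurons the difference was 0.73 ± 0.32 (edgeR adjusted p = 0.243), and for deletion without injury it was 0.85 ± 0.32 (edgeR adjusted p = 0.076). That last difference passed the threshold without uninjured control replicate 1, at 1.22 (edgeR adjusted p = 0.0124). Neither the difference between genotypes after crush (-0.13 ± 0.32) nor the interaction (-0.98 ± 0.45, edgeR adjusted p = 0.359) passed. The library that stood apart had 0 CPM of Il34, against 14.0 to 23.2 in the other 11 of its group; without it that sample went from 17.8 to 23.2 CPM and the crush effect in cKO was 0.82 (edgeR adjusted p = 0.174). The antisense genes Gm15894 and Gm15895 share 22 and 75 exonic bases with Il34. The library kit does not mark strand, so their reads cannot be told apart there, but their own levels were at most 0.196 CPM on average in any group.

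Per kilobase of exon, which allows genes to be set side by side, Csf1 stood at 1.72 ± 0.682 CPM per kb and Il34 at 2.99 ± 1.61 in uninjured control neurons. In crushed control neurons the levels were 22.4 ± 4.39 for Csf1 and 9.82 ± 1.62 for Il34. On this scale the mean of Il34 was above that of Csf1 before injury, within their spreads, and below it 3 days after crush, where the spreads did not meet. The receptor gene Csf1r had 0.804 ± 0.954, 3.71 ± 1.11, 4.36 ± 1.83 and 8.19 ± 4.87 CPM in uninjured control, uninjured cKO, crushed control and crushed cKO samples. It rose with crush in control neurons by 2.44 ± 0.75 log2 (edgeR adjusted p = 0.0312) and with deletion by 2.21 ± 0.74 (edgeR adjusted p = 0.0459). Kitl, which encodes stem cell factor, was the only other tested gene of 5 related haematopoietic factors listed, and it fell with deletion from 38.0 to 20.2 CPM (log2 change -0.91 ± 0.30, edgeR adjusted p = 0.0439).

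The activin subunit gene Inhbb (ENSMUSG00000037035, chromosome 1, 119415465 to 119422248, minus strand) had the largest changes of the 9 genes with a test, leaving aside those at 3 counts or fewer in a group. Uninjured control samples had 0.257, 0.248, 0.362 and 0.462 CPM, from 13 to 23 counts each. Uninjured cKO samples had 30.6, 22.3, 31.0 and 34.2 CPM. All 4 uninjured control samples were below 1 CPM and all 4 uninjured cKO samples above 20 CPM. Crushed control samples had 49.1, 30.3, 53.6 and 44.7 CPM, which overlapped the uninjured cKO samples, and crushed cKO samples had 111, 124, 114 and 109 CPM, above all others. The rise was 7.06 ± 0.24 log2 with crush in control (edgeR adjusted p = 1.83e-11), a 134-fold difference of means. It was 6.47 ± 0.24 with deletion alone (edgeR adjusted p = 8.68e-11), an 88.8-fold difference. In cKO neurons crush added 1.96 ± 0.18 (edgeR adjusted p = 1.73e-05), and after crush deletion added 1.37 ± 0.18 (edgeR adjusted p = 0.000291). The interaction was -5.11 ± 0.29 (edgeR adjusted p = 3.37e-08), which compares ratios. In CPM the mean went with crush from 0.332 to 44.4 in control and from 29.5 to 114.5 in cKO neurons. The rise in CPM was thus not smaller in cKO neurons. Without the library that stood apart, where Inhbb was 20.1 CPM against 98.1 to 145 in the other 11 of its group, the crush effect in cKO was 2.03 and the interaction -5.03, both still called.

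Inhba (ENSMUSG00000041324, chromosome 13, 16011851 to 16031621, plus strand), the other subunit gene, took another course. Its uninjured levels were 1.70, 0.820, 0.109 and 0.221 CPM in control and 4.64, 0.779, 1.52 and 0.270 CPM in cKO samples. Crushed control samples had 3.37, 5.10, 7.54 and 9.12 CPM, all above the uninjured control samples. Crushed cKO samples had 1.23, 1.75, 0.839 and 0.672 CPM, all below the crushed control samples. Crush raised Inhba by 3.13 ± 0.85 log2 in control neurons (edgeR adjusted p = 0.016); without uninjured control replicate 1, the highest of its group, the rise was 4.04. In cKO neurons the difference was -0.67 ± 0.79 (edgeR adjusted p = 0.777). Between the crushed genotypes it was -2.48 ± 0.82 (edgeR adjusted p = 0.0882), which passed with DESeq2 (adjusted p = 0.0147) and with sex as a term (edgeR adjusted p = 0.043). The interaction was -3.80 ± 1.15 (edgeR adjusted p = 0.122; DESeq2 adjusted p = 0.0146). So 3 days after crush the Inhbb level was higher in cKO than in control neurons by a called difference, and the Inhba level was lower by a difference whose call depended on the tool. Per kilobase of exon Inhba reached 0.983 ± 0.399 CPM per kb in crushed control neurons, where Inhbb stood at 10.4 ± 2.37.

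Tgfb1 (ENSMUSG00000002603, chromosome 7, 25687002 to 25705077, plus strand), the TGF-beta made by many injured tissues, was close to 0 throughout. Its 4 samples per group held 2, 0, 0 and 1 counts in uninjured control, 6, 2, 8 and 35 in uninjured cKO, 7, 2, 3 and 3 in crushed control and 20, 13, 7 and 15 in crushed cKO. Deletion raised it without injury (edgeR adjusted p = 0.0209), from 3 to 51 counts over the group, a ratio of 16.3 with a 95% counting interval of 5.26 to 81.5. Of those 51 counts 35 were in replicate 4, and 29 in 1 library, without which the ratio was 7.57. The call was lost without uninjured cKO replicate 4 (adjusted p = 0.114) and without uninjured control replicate 2 (0.0604) or 3 (0.052), all by edgeR. No other comparison of Tgfb1 passed (crush in control, edgeR adjusted p = 0.17; deletion after crush, 0.245), although in both the groups did not overlap.

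The promoter windows of Csf1 and Inhbb are shown because these are the genes whose log2 crush effect differed between genotypes, that of Inhba as the paired subunit with the other course, and that of Lif as the window with an AP-1 match. Each is the 250 bases before the start of the gene as given by RefSeq on GRCm38.p6, written 5′ to 3′ on the strand of the gene: chr3:107760470-107760719 (minus), chr1:119422249-119422498 (minus), chr13:16011601-16011850 (plus) and chr11:4257318-4257567 (plus). Capitals mark matches to 3 motifs searched on both strands, the AP-1 letters TGANTCA, the CRE letters TGACGTCA, which ATF and CREB factors bind, and the TATA box letters TATAAA.
Csf1: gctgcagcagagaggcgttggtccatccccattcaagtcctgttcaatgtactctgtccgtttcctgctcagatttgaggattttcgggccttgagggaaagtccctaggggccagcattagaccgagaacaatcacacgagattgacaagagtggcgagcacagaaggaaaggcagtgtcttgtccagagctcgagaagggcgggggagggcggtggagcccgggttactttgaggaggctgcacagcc
Inhbb: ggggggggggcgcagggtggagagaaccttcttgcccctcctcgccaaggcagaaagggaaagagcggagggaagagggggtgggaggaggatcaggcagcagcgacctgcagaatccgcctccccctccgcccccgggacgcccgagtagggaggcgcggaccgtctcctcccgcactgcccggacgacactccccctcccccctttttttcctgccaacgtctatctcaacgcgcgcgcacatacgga
Inhba: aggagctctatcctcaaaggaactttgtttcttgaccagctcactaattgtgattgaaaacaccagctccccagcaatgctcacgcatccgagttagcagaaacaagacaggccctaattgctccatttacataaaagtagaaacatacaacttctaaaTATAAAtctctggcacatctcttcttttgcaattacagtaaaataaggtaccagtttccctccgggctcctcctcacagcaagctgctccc
Lif: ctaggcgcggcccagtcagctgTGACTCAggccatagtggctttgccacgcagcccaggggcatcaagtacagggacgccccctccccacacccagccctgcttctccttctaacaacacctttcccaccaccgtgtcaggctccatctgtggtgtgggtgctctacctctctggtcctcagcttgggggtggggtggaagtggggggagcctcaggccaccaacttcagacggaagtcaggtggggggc
Windows were given for 8 of the 10 genes. The AP-1 letters were found in 1 of these, Lif, 228 to 222 bases before the start, and in 6.75% of 32851 windows of the same length from all genes. The CRE letters were found in 0 of the 8 and in 1.55% of all. The TATA letters were found in 3, Inhba, Cx3cl1 and Reg3b, and in 12.4% of all. In the Inhbb and Csf1 windows none of the 3 motifs matched, and their GC content was 68% and 56.4%, against 43.2% for Inhba.

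The chemokine Ccl2 (ENSMUSG00000035385, chromosome 11, 82035571 to 82037453, plus strand) was already present without injury and varied widely between samples. Uninjured control samples had 136, 23.8, 22.7 and 60.5 CPM and crushed control samples 24.0, 54.9, 31.4 and 23.3 CPM. Uninjured cKO samples had 6.91, 4.23, 15.3 and 27.6 CPM and crushed cKO samples 8.31, 7.95, 35.3 and 13.6 CPM. The groups overlapped in every comparison, and the cKO means were the lower ones on either side. Deletion without injury lowered Ccl2 by a log2 change of -2.17 ± 0.67 (edgeR adjusted p = 0.0313). The call was lost without any 1 of 5 samples: uninjured control replicates 1 (-1.40, adjusted p = 0.146) and 4 (0.0522), and uninjured cKO replicates 1 (0.0916), 2 (0.0856) and 3 (0.0608), all by edgeR. The change was -2.79 without uninjured cKO replicate 4. Crush gave -0.86 ± 0.65 in control (edgeR adjusted p = 0.399) and 0.27 ± 0.65 in cKO neurons (0.915), and deletion after crush gave -1.04 ± 0.65 (0.416). Neither these nor the interaction (1.13 ± 0.92, edgeR adjusted p = 0.659) passed the threshold. The gene Gm17268, which spans Ccl2 on the other strand, had 0 counts in all groups. Per kilobase of exon Ccl2 had the highest mean level of the 10 genes in uninjured control neurons, at 53.4 ± 46.8 CPM per kb.

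Cx3cl1 (ENSMUSG00000031778, chromosome 8, 94772009 to 94782427, plus strand), whose membrane-bound product fractalkine is shed by ADAM10 and ADAM17, was barely detected and had no test. Its samples held 27, 0, 2 and 18 counts in uninjured control, 0, 2, 2 and 2 in uninjured cKO, 1, 0, 18 and 6 in crushed control and 0, 1, 0 and 1 in crushed cKO. In each genotype the groups overlapped. Over the group the ratio of uninjured cKO to uninjured control was 0.122 (95% counting interval 0.0427 to 0.286), which covers counting error only and not the spread between samples. The gene of its receptor, Cx3cr1, had 0.0343, 0.0191, 0.0181 and 0.0602 CPM in uninjured control and 2.83, 7.0, 3.69 and 9.30 CPM in uninjured cKO samples. Crushed control samples had 10.4, 5.07, 5.59 and 6.72 CPM, also all above uninjured control. Cx3cr1 rose by 7.64 ± 0.61 log2 with crush in control (edgeR adjusted p = 2.7e-07) and by 7.35 ± 0.60 with deletion (5.22e-07). Its mean was 5.70 CPM in uninjured cKO and 8.35 CPM in crushed cKO samples (0.55 ± 0.41 log2, edgeR adjusted p = 0.583). The interaction was -7.09 ± 0.72 (edgeR adjusted p = 2.77e-05), which compares ratios and rests on a mean of 0.0329 CPM in uninjured control.

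Cx3cr1 and Csf1r are markers of macrophages, and the summed level of 16 macrophage markers ranged from 5.89 to 11.9 CPM in uninjured control, 11.1 to 28.9 in uninjured cKO, 12.0 to 89.5 in crushed control (replicate 2 the highest, the other 3 at 17.4 or less) and 17.9 to 36.5 in crushed cKO samples. Of these markers, 2 of 11 tested rose with crush in control, beside 11.0% of all genes, and 2 with deletion without injury, beside 11.7%. They were Cx3cr1 and Csf1r in either case, and the counts were not tested against those shares. The median log2 change of the 11 was 1.87 with crush in control (all genes -0.03) and 0.55 in cKO (0.0023). With deletion it was 0.05 without injury (all genes 0.02) and -0.74 after crush (-0.0009). The pan-leukocyte marker Ptprc and the macrophage markers Adgre1, Itgam, C1qa, C1qc, Tyrobp, Cd163 and Fcgr1 stayed under 1 CPM on average in all 4 groups, with Cd163 at 0 in uninjured control and Itgam at 0 in crushed control. Cd68 and Mrc1 were under 1 CPM in uninjured control only. Aif1 was under 1 CPM in the control groups only, Fcer1g in all but crushed control, and C1qb in uninjured cKO only. The summed level of 9 neutrophil and lymphocyte markers was 0.398 to 2.78 CPM in uninjured control, 6.60 to 9.87 in uninjured cKO, 10.2 to 30.5 in crushed control and 25.9 to 38.9 in crushed cKO samples. The medians of these sums stand in the same order of groups as the Inhbb means. Most of the sum came from Trbc2 and Ly6g in the crushed groups, while S100a9, Cd3e, Cd3g, Nkg7 and Ms4a1 were under 1 CPM in all groups. Of 4 tested, 3 rose with crush in control (median log2 change 5.06), namely Trbc2, Ly6g and S100a8. The same 3 rose with deletion without injury (4.20), and S100a8 was under 1 CPM in both control groups. Crush in cKO raised Trbc2 and Ly6g (1.635), beside 2.57% of all genes. Deletion after crush raised S100a8 and Trbc2 (1.27), beside 3.38%. The part of such cells in the changes of the 10 genes was not tested.

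Lif (ENSMUSG00000034394, chromosome 11, 4257557 to 4272514, plus strand) is a gp130 cytokine that acts on neurons, glia and immune cells after nerve injury. Its samples held 1, 0, 0 and 0 counts in uninjured control, 18, 28, 0 and 22 in uninjured cKO, 11, 40, 6 and 19 in crushed control and 14, 53, 34 and 3 in crushed cKO. Against the single count of uninjured control, the ratio was 79.5 for crushed control (95% counting interval 13.9 to 3180) and 65.1 for uninjured cKO (11.3 to 2610). Lif rose in either comparison (edgeR adjusted p = 0.0094 for crush in control and 0.0125 for deletion). Every crushed control sample was above every uninjured control sample, while 1 uninjured cKO sample was at 0. Between the groups with more counts no comparison passed: crush in cKO gave 0.73 ± 1.09 (edgeR adjusted p = 0.837), deletion after crush 0.37 ± 1.08 (0.91), and the interaction had an adjusted p of 0.182. Of the receptor chains, Lifr had 1565 ± 222 CPM in uninjured control and 1145 ± 245 CPM in crushed control samples, a fall of 0.45 ± 0.15 log2 (edgeR adjusted p = 0.0443), and Il6st, which encodes gp130, had 189 to 211 CPM on average in all groups with no call.

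Timp1 (ENSMUSG00000001131, chromosome X, 20870166 to 20874735, plus strand) followed the injury in both genotypes. Uninjured control samples had 0.395, 0.954, 1.61 and 2.87 CPM and uninjured cKO samples 3.61, 4.78, 1.60 and 3.02 CPM. Crushed control samples had 39.5, 15.4, 24.0 and 22.8 CPM and crushed cKO samples 9.06, 18.1, 51.6 and 21.4 CPM. Every crushed sample was above every uninjured one. Crush raised Timp1 by 4.13 ± 0.61 log2 in control (edgeR adjusted p = 0.000186) and by 2.94 ± 0.58 in cKO neurons (0.00642). The 51.6 CPM of crushed cKO replicate 3 came largely from the library that stood apart, which had 158 CPM; without that aliquot the sample was at 26.0 CPM and the rise 2.50 (edgeR adjusted p = 0.00657), and without the whole replicate it was 2.33 (0.0205). Deletion gave 1.16 ± 0.56 without injury (edgeR adjusted p = 0.165) and -0.02 ± 0.53 after crush (0.991), and the interaction was -1.18 ± 0.77 (0.557). Without the library that stood apart the last 2 values were -0.46 and -1.63, neither called. Timp1 lies inside the span of Syn1 on the other strand without sharing an exon. Syn1, a synaptic vesicle gene, had 65.7 to 105 CPM over all samples and no call. Cd63, whose product is a tetraspanin that binds TIMP1, rose in all 4 comparisons: from 71.3 ± 13.8 to 304 ± 44.0 CPM with crush in control (2.09 ± 0.16 log2, edgeR adjusted p = 1.46e-07), to 365 ± 32.3 with deletion (2.36 ± 0.16, 7.71e-08) and to 593 ± 99.2 CPM with both, with an interaction of -1.39 ± 0.21 (0.00189).

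Reg3b (ENSMUSG00000071356, chromosome 6, 78370657 to 78373466, plus strand), a lectin known from inflamed gut and pancreas and from injured sensory neurons of rodents, had 0 counts in all 12 uninjured control libraries. The uninjured cKO samples held 20, 27, 23 and 26 counts, or 0.375 to 0.478 CPM, the most even group of this gene. Crushed control samples held 0, 0, 7 and 22 counts and crushed cKO samples 26, 11, 0 and 1. Deletion without injury raised it (edgeR adjusted p = 0.0213), at least 30.6-fold against a floor of 3 counts over the uninjured control group, and at least 24.7-fold without the library with the most counts. For crush in control the edgeR adjusted p was 0.0504, and the level was at least 10.1-fold higher against the same floor. Of the 29 crushed control counts 22 came from 1 library, aliquot B of replicate 4, and without it the level was at least 2.60-fold higher. The comparison passed with DESeq2 (adjusted p = 0.0216), without the library that stood apart (edgeR adjusted p = 0.0483), and without crushed control replicate 1 or 2 or crushed cKO replicate 1 or 3 (edgeR adjusted p = 0.0343 to 0.0495). It did not pass in the other 12 of 16 fits with a sample left out (adjusted p up to 0.152), with no filter (0.0614), with sex as a term (0.0737) or with the replicate block (0.111), all by edgeR. In cKO neurons crush gave a ratio of 0.473 over the group (95% counting interval 0.316 to 0.696), with overlapping samples and no call (edgeR adjusted p = 0.79).

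**Figure D3:**
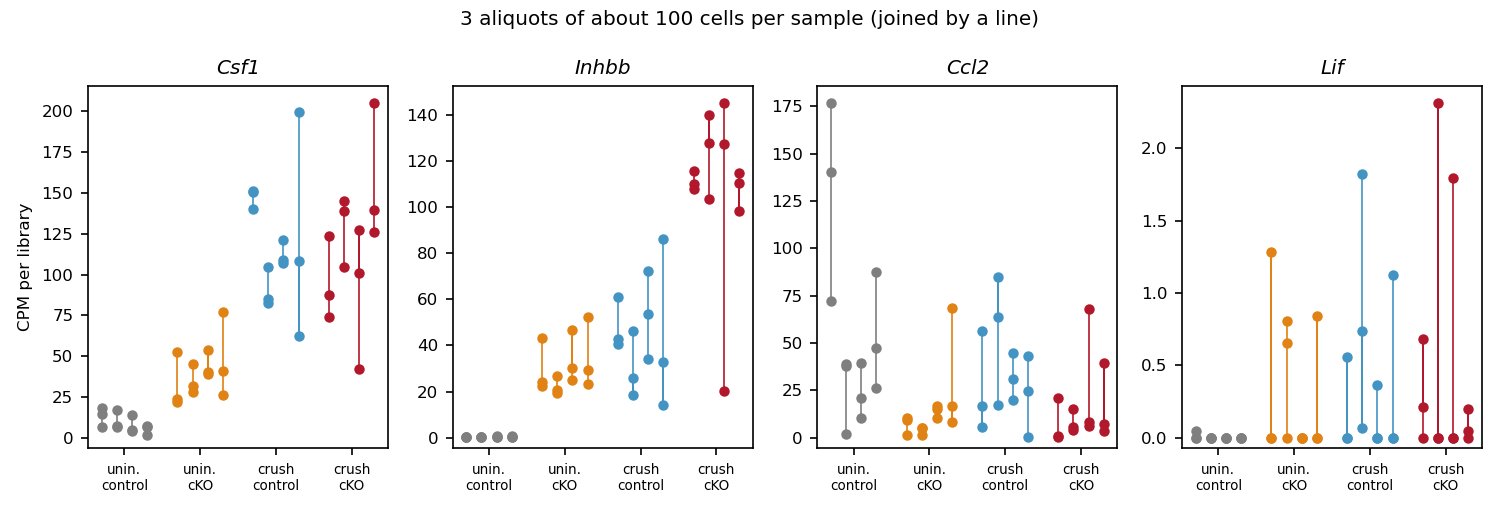
CPM of Csf1, Inhbb, Ccl2 and Lif in each of the 48 libraries (vertical axis), with the 3 aliquots of a sample joined by a line and samples grouped by condition. Csf1 and Inhbb are spread over all aliquots, apart from 1 crushed cKO aliquot low in both, while most aliquots of Lif are at 0 and a few carry its counts.

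The aliquots of about 100 cells show how evenly a transcript was spread among the 3 libraries of a sample. Csf1 had a count in 12 of 12 libraries of every group, and in crushed control samples the aliquot with the most counts held a median 40.6% of a sample's total. Inhbb likewise had a count in 12 of 12 libraries of every group. Lif lay at the other end. It had a count in 4 of 12 uninjured cKO, 6 of 12 crushed control and 6 of 12 crushed cKO libraries, and in the 3 samples of each of these groups with at least 10 counts 1 aliquot held a median 100% of them. Inhba was uneven in crushed control samples, with a median 84.6% in the top aliquot and a library range of 0 to 26.0 CPM. For Ccl2 the median was 83.8% in crushed cKO samples, where libraries ranged from 0.354 to 67.8 CPM. Reg3b had counts in 6 of 12 uninjured cKO libraries, so its even sample totals came from few aliquots. No molecular identifiers are named, so counts of a rare transcript include amplification copies, and library sizes differ among aliquots. Treated as 48 separate libraries, Lif, Tgfb1 and Reg3b no longer passed the filter.

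Among the genes of these pathways, 15 receptor genes were tested. Of all genes, 11.0% rose and 8.68% fell with crush in control, and 2.57% and 2.86% in cKO. With deletion 11.7% rose and 9.02% fell without injury, and 3.38% and 3.21% after crush. The counts in these short lists, here and below, were not tested against those shares, and several lie near them. With crush in control 5 rose and 1 fell (median log2 change 0.11, all genes -0.03), in cKO 1 rose, with deletion without injury 4 rose (median 0.22, all genes 0.02) and after crush 1 rose. Acvr1c, which encodes the type I receptor ALK7 for activin B and Nodal, had 0.706 ± 0.816 CPM in uninjured control, 7.96 ± 3.14 in uninjured cKO, 18.1 ± 8.89 in crushed control and 10.9 ± 4.23 CPM in crushed cKO samples. It rose by 4.69 ± 0.63 log2 with crush in control (edgeR adjusted p = 7.87e-05) and by 3.50 ± 0.61 with deletion (0.00066), with an interaction of -4.23 ± 0.80 (0.00949). The type II receptor gene Acvr2b rose from 0.773 to 2.76 CPM with crush in control (1.83 ± 0.45 log2, edgeR adjusted p = 0.00928). The other activin receptor genes were not called in that comparison: Acvr1b had 16.9 ± 3.1 CPM in uninjured control and 15.6 ± 2 in crushed control samples (-0.12 ± 0.18 log2), and Acvr2a 12.9 ± 1.9 and 13.7 ± 2.5 CPM (0.09 ± 0.19).

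Of 17 tested genes for processing, latency and antagonists, 3 rose with crush in control (median log2 change 0.25) and 2 in cKO (0.51, all genes 0.0023), with 0 falling in either. Fst, which encodes the activin antagonist follistatin, rose in control neurons from 1.48 ± 0.751 to 10.8 ± 6.20 CPM (2.87 ± 0.66 log2, edgeR adjusted p = 0.00597), with 1 crushed sample at 1.83 CPM. Ltbp1, for latent TGF-beta binding protein, rose in both genotypes, by 2.61 ± 0.39 and 1.63 ± 0.37, and Adam10, the fractalkine sheddase, by 0.62 ± 0.10 and 0.60 ± 0.10 log2. With deletion without injury Ltbp1 rose and 2 fell: Fstl3, another activin antagonist, from 2.88 to 1.11 CPM (-1.37 ± 0.35, edgeR adjusted p = 0.011), and Itgb6, a subunit of a TGF-beta activating integrin, from 6.36 to 0.416 CPM (-3.92 ± 1.04, 0.0134). Itgb6 was also lower with deletion after crush (-4.45 ± 1.08, edgeR adjusted p = 0.0206).

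**Figure D4:**
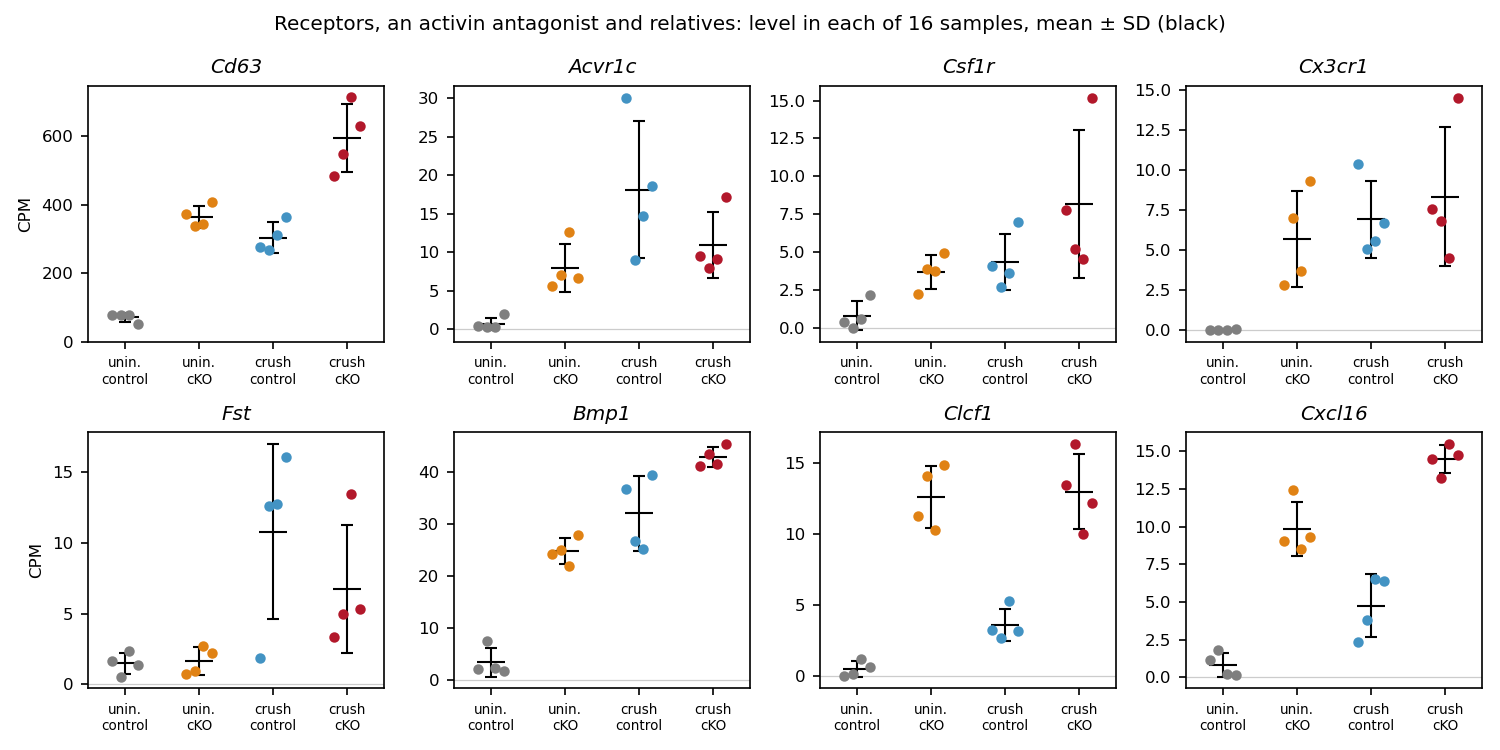
Level in CPM (vertical axis, from 0) of 4 receptor genes, the antagonist gene Fst and 3 relatives in the 4 samples of each group, with mean and SD in black. Cd63, Acvr1c, Cx3cr1, Bmp1 and Clcf1 are low in all uninjured control samples, and Clcf1 and Cxcl16 are higher in both cKO groups than in the crushed control group.

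Many relatives of the 10 genes did not pass the filter. Of 23 other chemokine genes 9 passed the filter, and 3 rose with crush in control (median log2 change 0.36): Cxcl16, Cxcl14 and Ccl8. Cxcl16, a membrane-bound chemokine like fractalkine, had 0.839, 9.85, 4.76 and 14.5 CPM in uninjured control, uninjured cKO, crushed control and crushed cKO samples, and rose with deletion by 3.55 ± 0.59 log2 (edgeR adjusted p = 0.000468). Cxcl14 also rose with deletion, and 0 of these 9 genes fell in any comparison. Their median log2 change with deletion without injury was nevertheless -0.55 (all genes 0.02), below that of all genes. The gp130 cytokines had 4 of 8 genes tested. Of these Il6 rose with crush in control from 6.07 ± 4.55 to 28.6 ± 9.54 CPM (2.24 ± 0.73 log2, edgeR adjusted p = 0.0401). Clcf1, for cardiotrophin-like cytokine, rose with crush from 0.511 to 3.60 CPM (2.81 ± 0.68, edgeR adjusted p = 0.00827) and with deletion to 12.6 CPM (4.63 ± 0.73, 0.000297).

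Of 23 other TGF-beta superfamily genes 12 were tested, and 3 rose and 1 fell with crush in control (median log2 change 0.57, or 0.16 with the 2 genes at 0 counts in a group set to their bound). With deletion without injury 3 rose and 2 fell (median 0.89). Bmp1, a secreted procollagen protease grouped with this family by name, went from 3.33 ± 2.76 to 32.0 ± 7.16 CPM with crush and to 24.8 ± 2.47 CPM with deletion, and its crush effect was smaller in cKO neurons (-2.48 ± 0.49 log2, edgeR adjusted p = 0.0142). Tgfb2 fell with deletion without injury from 15.9 to 4.13 CPM (-1.95 ± 0.34, edgeR adjusted p = 0.000666), the comparison in which Tgfb1 rose from 3 counts. Gdf11 fell in the same comparison from 60.1 to 32.5 CPM (-0.89 ± 0.17, 0.00153). Gdf15, a stress-induced cytokine gene, was at 0 in uninjured control and 0.367 ± 0.271 CPM in uninjured cKO samples, and rose with deletion on either side. Of the TIMP and REG relatives 3 of 9 were tested, and Timp2 fell with crush in control from 480 to 306 CPM (-0.65 ± 0.14, edgeR adjusted p = 0.00443). Among 11 tested of 18 other cytokines and alarmins, 3 rose with crush in control, 1 in cKO and 3 with deletion without injury. Il33, an alarmin gene of the interleukin-1 family, rose in both genotypes, by 3.56 ± 1.10 (edgeR adjusted p = 0.0323) and 4.21 ± 1.13 (0.0384).

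The genes most like each of the 10 in pattern were found by the root mean square difference of log2 CPM over the 16 samples, each gene centred on its own mean. For Csf1 the nearest was Atf3, the injury-induced transcription factor gene, at 0.237, with 76.5, 434, 1132 and 1095 CPM in the order uninjured control, uninjured cKO, crushed control and crushed cKO. The spread of Csf1 around its own mean on that scale was 1.57. Next was Kif22, a kinesin gene, at 0.317. For Inhbb (own spread 3.20) they were Trbc2 at 0.494, with 0.0191, 2.54, 4.71 and 12.9 CPM, and Sez6l at 0.511, with 0.765, 67.1, 145 and 189 CPM. Il34 was nearest to AI506816 and Fndc4, both at 0.305, and Timp1 to Tmem88b at 0.652. For Inhba, Lif and Reg3b the nearest genes were as far as 0.806 or more, beside own spreads of 1.69 to 1.71. Ccl2 lay nearest to Ikzf2, at 0.581 beside an own spread of 1.25, and Tgfb1 to Scpep1 at 0.580.

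The authors' deposited table of log2 fold changes held 7 of the 10 genes, with 3 columns of comparisons and no reference group named in its header. For Inhbb the authors' deposited table gave 6.46 for uninjured cKO, 6.99 for crush control and 8.32 for crush cKO. For Csf1 the authors' deposited table gave 2.14, 3.69 and 3.70 in the same order, and for Inhba 1.35, 3.14 and 0.87. In that table Ccl2 had -2.06, -0.80 and -1.97.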

How the data were processed

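The authors deposited unnormalized read counts by Ensembl identifier, 1 file for each of 48 libraries. FastQC, STAR, HTSeq, DESeq2 and mm10 are named in the submitters' processing notes, without versions. Per the labels' protocols each library came from about 100 sorted cells, by a SMARTer kit that does not mark strand. HTSeq summary lines were left out; reads outside genes made up 5.921 to 19.368% and those aligned to several places 37.488 to 46.12% of each file. A second table the authors deposited holds log2 fold changes, their standard errors (lfcSEM per the file headers, kept here as a score) and p-values for 3 comparisons, of which only log2 values are copied here.

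Identifiers were matched to GENCODE M21 symbols (47224 matched, 419 did not). The 3 aliquots were summed, as the labels call them technical, and 16 samples were fitted in edgeR 4.0.16 (R 4.3.3) with TMM scaling, filterByExpr, 1 mean per group and the quasi-likelihood test (two-sided), p-values being adjusted by Benjamini-Hochberg over 19048 genes at a threshold of 0.05. Alternatives were DESeq2 1.42.0, its size factors, no filter, each sample left out, the replicate number or sex as a term, and libraries taken singly. SE is the log2 change over the square root of F, and 95% intervals of log2 changes are 1.96 SE. Counting intervals are exact binomial and, like the floor of 3 counts, cover counting error only. CPM uses TMM-scaled library sizes. Samples of a group differed by more than sampling noise (chi-square per degree of freedom 48.1 to 181 over 24 pairs). The fitting was tested on simulated data for crush in control, with 200 of 19048 genes changed. It recovered 37% of 2-fold and 49% of 4-fold changes, with 3 false calls. The data had 3750 genes called in that comparison, far more than the 200 changed here, so these shares need not hold for the data. A gene that was not called may still have changed. Named genes were all 10 members; from each list of related genes, up to 4 called genes with the smallest adjusted p per comparison and up to 2 abundant others; and the 2 genes nearest in pattern. Members and lists were chosen with earlier results of these data known. Promoter windows are from RefSeq, GRCm38.p6.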

Additional observations from a re-analysis of the deposited data

Results flagged for a closer look

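The effect of crush differed between the genotypes, by edgeR's interaction test, for 2 of the 10 genes and 4 related ones. The log2 effect in cKO minus that in control neurons was -2.14 for Csf1, -5.11 for Inhbb, -7.09 for Cx3cr1, -4.23 for Acvr1c, -1.39 for Cd63 and -2.48 for Bmp1. These values compare ratios, and the uninjured control means of Inhbb, Cx3cr1 and Acvr1c were only 0.332, 0.0329 and 0.706 CPM. In 40 checks of 4 samples (10 genes in 4 groups), 2 had 1 sample far from the other 3 by Dixon's criterion at 95%, which chance gives in about 1 of 20 groups. They were Lif in uninjured control, whose highest sample had 0.0172 CPM from 1 count beside 3 samples at 0, and Cx3cl1 in uninjured cKO, whose lowest sample was at 0.0 CPM beside 3 samples of 2 counts each.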

How the results depend on the processing

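Genes called numbered 3750 with crush in control and 1034 in cKO neurons, 3948 with deletion without injury, 1256 with deletion after crush and 335 in the interaction. At an adjusted p under 0.01 they were 2002, 431, 2105, 479 and 154. DESeq2 called 1782 for crush in cKO, 2241 for deletion after crush and 856 for the interaction, and the 48 libraries taken separately gave 1993 for deletion after crush and 753 for the interaction. Leaving out each sample in turn gave 2753 to 3915, 618 to 1082, 2932 to 4109, 928 to 1364 and 202 to 485 in the same order. The count for crush in cKO fell by over 1.5 times without crushed cKO replicate 4 (637) and without uninjured cKO replicates 1 (618), 2 (642) and 3 (683), and that for the interaction without uninjured cKO replicate 1 (202).

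Of the 10 genes, leaving out samples gave 6 to 7 called for crush in control, 5 to 6 for deletion without injury, and 3, 1 and 2 for crush in cKO, deletion after crush and the interaction. For deletion without injury 3 were called with separate libraries (Csf1, Ccl2, Inhbb) and 2 at 0.01 (Csf1, Inhbb). For deletion after crush 2 were called with DESeq2 and 2 with sex as a term (Inhbb, and Inhba downwards). Fold changes that were not called could turn sign: over samples left out, deletion after crush ranged from -0.15 to 0.09 for Csf1, -0.64 to 0.27 for Timp1 and -1.12 to 1.99 for Reg3b, and crush in cKO from -0.43 to 0.88 for Ccl2 and -1.03 to 0.39 for Inhba. Deletion after crush was 0.26 for Timp1 with separate libraries and 0.02 for Csf1 without the library that stood apart, an alternative chosen after seeing the data. The cause of these shifts was not tested. Lif and Tgfb1 changes without injury rest on few counts: leaving out uninjured control replicate 1, which holds the 1 Lif count, moved the fitted log2 change of Lif with crush from 5.86 to 7.38 (5.12 without crushed control replicate 2) and with deletion from 5.49 to 7.01, and that of Tgfb1 with deletion from 3.79 to 4.65 (2.62 without uninjured cKO replicate 4).

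With the replicate number as a block, 6, 3, 6, 1 and 2 of the 10 genes were called, and 298 genes for the interaction; with the block within genotype it was 288. The block changed no call of the 10 genes. Uninjured cells came from the other side of crushed mice, so same-numbered uninjured and crushed samples of a genotype may share mice. The labels do not say whether they do. Their deviations correlated at 0.041 to 0.152, and 8 of 8 correlated best with their own number. The main fit did not pair them, so its crush tests treat the 2 sides as independent. Scaling by DESeq2's size factors and leaving out the filter changed no call of the 9 tested genes.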
